A study of Homo sapiens with 18 samples.

Results

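The response of CALRwt K562 cells to Melittin (MEL) was read from 3 arrays of MEL-treated and 3 arrays of untreated cells, chosen by the vector given in their labels, out of 18 arrays in all. K562 is a human chronic myeloid leukemia line with erythroid features. The untreated group carried the wild-type calreticulin gene (CALRwt) in a retroviral vector and received no MEL, and the treated group carried the same vector and received MEL at 5 μg/mL for 24 h. Both groups were purified on NGFR, the surface marker of the vector, so both carried the vector's CALR beside the line's own copies. The 12 other arrays held cells with the mutated CALRdel52 or CALRins5 vector, 6 arrays each, under the same treatments. The labels describe untreated cells kept 24 h in culture, whereas the supplementary methods describe RNA taken right after sorting, so the culture time of the untreated cells is uncertain. The probe sets belong to the HG-U133 Plus array although the supplementary methods name another array. The sources do not say whether equally numbered replicates came from the same experiment. Where replicates are no separate cultures, p-values cover just the spread among these samples, and that spread can be technical.

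MEL is the main peptide of bee venom. It inserts into membranes, activates phospholipases and lets calcium enter, and the study applied it as a source of oxidative stress. Cells answer a load on the endoplasmic reticulum (ER) through the sensors PERK, IRE1 and ATF6, which slow translation and raise chaperones, and PERK acts with related kinases on eIF2alpha to favour the factor ATF4 and its amino acid genes. Cells hold their sterol level through the SREBP factors, which INSIG1 retains in the ER when sterols are plentiful and which otherwise drive the enzymes of cholesterol and fatty acid synthesis. Oxidants act on KEAP1, which then releases the factor NRF2.

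The 6 arrays had medians of 4.57 to 4.66 on the log2 scale. The interquartile range of an array's values averaged 3.53 ± 0.06 with MEL (SD, n = 3) against 3.69 ± 0.05 in untreated cells. The signal of the 3' probe set of GAPDH minus that of its 5' probe set, a sign of RNA integrity, was 0.55 to 0.68 in MEL arrays and 0.33 to 0.36 in untreated arrays, and the same measure of ACTB was 1.20 to 1.55 against 0.92 to 1.10. RNA integrity and MEL thus moved together in these arrays, and its part in the results was tested only by using the GAPDH difference as a covariate. In a PCA of these 6 arrays, component 1 held 55.8% of the variance and placed the MEL arrays at 28.2 to 42.6 and the untreated arrays at −37.4 to −26.6. CALR expression from the vector could not be checked well, since no array lacks a vector. NGFR averaged 3.46 untreated and 3.63 with MEL, below the array medians. The brightest CALR probe set, prone to cross-hybridisation, averaged 5.80 untreated and 6.18 with MEL (log2 change 0.38, adjusted p = 0.0243). The other CALR probe sets averaged 3.11 and 3.23 untreated and 3.67 and 3.49 with MEL, below the array medians, and were not called. The brightest probe set lost its call without any 1 of 4 arrays (adjusted p up to 0.108). Markers of K562 and erythroid cells had a mean level of 10.27 ± 0.03 untreated and 10.21 ± 0.07 with MEL. Of the measured markers of other cell types, 9 of lymphocytes had a mean level of 5.07 untreated and 5.12 with MEL, 8 of monocytes 4.32 and 4.35, 7 of fibroblasts 4.38 and 4.37, and 8 of epithelium and endothelium 4.6 and 4.68, and none of them passed the test. These means include much brighter members, with CD3D at 9.01, LYZ at 9.89, COL1A1 at 7.48 and EPCAM at 11.17 in untreated cells. In RNA from whole cultures, a change in the share of cells and a change in RNA per cell cannot be told apart.

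A gene was represented by its brightest probe set, and the limma fit over all 18 arrays was used with a Benjamini-Hochberg adjusted p under 0.05 over all 54675 probe sets. MEL changed 8616 probe sets in CALRwt cells, 15.8% of those tested, of which 3628 were higher and 4988 lower. The median size of a called change was 0.47 on the log2 scale. Counted by gene, 3581 of 19775 passed (18.1%), 1502 higher (7.6%) and 2079 lower (10.5%). In all 30 genes rose and 50 fell by more than 1 on the log2 scale. The share called varied with the signal of the probe set. Among the fifth of genes with the highest signal 8.14% were higher and 23.4% lower, with a median log2 change of −0.10, and among the fifth with the lowest signal 3.26% were higher and 0.379% lower, with a median of 0.08. Most probe sets described below had a high signal, so their counts are read against the 12438 genes above the median level, of which 9.41% were higher and 16.1% lower. When each array was centred on its median, the share of higher probe sets among those called dropped from 42.1% to 27.5%. With the GAPDH difference as a covariate 5264 probe sets were called. Without untreated replicate 3, MEL replicate 3 or untreated replicate 1 the number was 5068, 5429 or 5535.

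**Figure D1:**
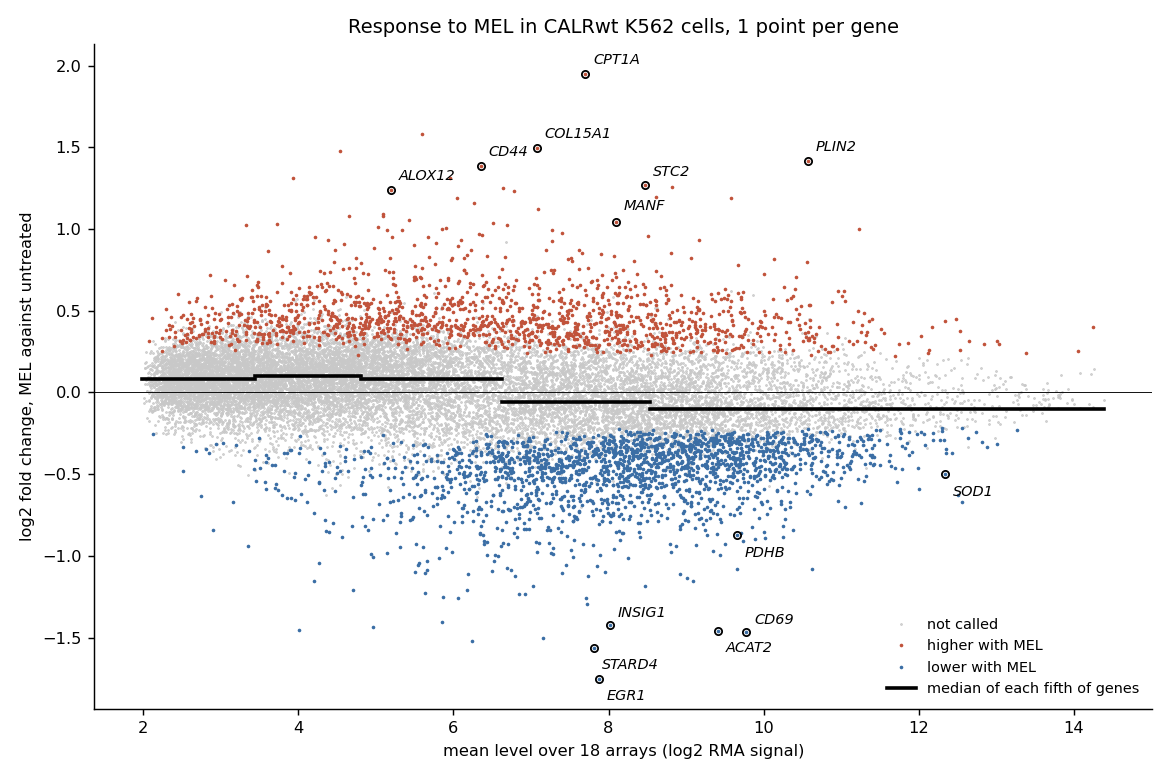
Log2 fold change of each gene with MEL in CALRwt K562 cells (vertical axis) against its mean log2 RMA signal over 18 arrays (horizontal axis), 1 point per gene, with called genes in colour and black bars at the median of each of 5 equal groups of genes by signal. The bars step from 0.08 in the fifth with the lowest signal to −0.10 in that with the highest, and CPT1A at 1.95 and EGR1 at −1.75 lie farthest out among the labelled genes.

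Several genes of fat use rose, and most measured genes of sterol and fatty acid synthesis fell. CPT1A, which carries long-chain fatty acids across the outer mitochondrial membrane for oxidation, had the largest increase of the genes named by rule. Its log2 signals were 6.59, 6.52 and 6.75 in untreated cells and 8.66, 8.58 and 8.46 with MEL. The groups lay far apart, and the increase was 1.95 (standard error 0.13, limma adjusted p = 1.4e-07), or 3.86-fold. PLIN2, the coat protein of lipid droplets, had signals of 9.99, 9.89 and 9.88 untreated and 11.38, 11.32 and 11.30 with MEL. All treated arrays were above all untreated ones by a margin much wider than either group's spread, and PLIN2 rose by 1.42 (standard error 0.09, adjusted p = 8.2e-08). The carnitine carrier SLC25A20 rose by 0.57, the very-long-chain dehydrogenase ACADVL by 0.57, the triglyceride enzyme DGAT2 by 0.52, and the lipases LIPE and PNPLA2 by 0.57 and 0.42. Of 24 measured genes of fatty acid oxidation and PPAR targets 6 were higher and 3 lower, with a median change of 0.08 beside 0.03 over all genes. The 3 lower were the nuclear receptor PPARD (−0.59), the isomerase ECI2 (−0.48) and the medium-chain dehydrogenase ACADM (−0.46), so the list did not move as a whole. Of 17 lipid droplet and triglyceride genes 5 were higher and 1 lower, which was GPAM, the first enzyme of glycerolipid synthesis (−0.50). The calls of ACADM and GPAM were each lost without any 1 of 4 arrays (adjusted p up to 0.0861 and 0.141).

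Transcripts of most measured enzymes of cholesterol synthesis were lower. STARD4, a carrier of cholesterol between membranes, had signals of 8.51, 8.43 and 8.46 untreated and of 6.87, 6.92 and 6.93 with MEL. Replicates lay close together and the groups far apart, and STARD4 fell by 1.56 (standard error 0.10, adjusted p = 1e-07). INSIG1 had signals of 8.66, 8.50 and 8.81 untreated and of 7.30, 7.27 and 7.12 with MEL. The groups did not overlap, INSIG1 fell by 1.43 (standard error 0.11, adjusted p = 6.6e-07), and all 3 of its probe sets were called lower. ACAT2, which joins acetyl-CoA units at the head of the pathway, had signals of 10.11, 10.14 and 10.07 untreated and of 8.78, 8.65 and 8.51 with MEL, and fell by 1.46. HMGCS1, the HMG-CoA synthase, fell by 1.23, the prenyl synthase FDPS by 1.08, the isopentenyl isomerase IDI1 by 0.74 and squalene epoxidase SQLE by 0.32. In all, 5 of 8 measured enzymes from acetoacetyl-CoA to squalene were lower and none higher, with a median of −0.53 beside −0.02 over genes above the median level. Their mean level was 8.38 ± 0.03 in untreated (SD, n = 3) and 7.77 ± 0.05 in treated cells. The call of SQLE was lost without any 1 of 4 arrays (adjusted p up to 0.0799).

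The later steps from lanosterol to cholesterol followed, with 6 of 8 measured enzymes lower, none higher and a median of −0.57. MSMO1, a sterol demethylase, had signals of 7.47, 7.60 and 7.60 untreated and of 6.25, 6.38 and 6.50 with MEL. The groups stood apart and MSMO1 fell by 1.18 (standard error 0.10, adjusted p = 1.2e-06). DHCR7, which makes cholesterol from its last precursor, fell by 0.83, the desaturase SC5D by 0.65, the reductase TM7SF2 by 0.60, the isomerase EBP by 0.55 and the dehydrogenase NSDHL by 0.43. Among 17 genes of SREBP control, sterol uptake and transport 6 were lower and 1 higher. Beside STARD4 and INSIG1, the cholesterol esterifying enzyme SOAT1 (−0.86) and MYLIP, a ligase that degrades lipoprotein receptors (−0.67), were lower, and SCAP, the SREBP escort, was higher (0.35). Of the factor genes SREBF2 was at −0.09 and did not pass the test. TM7SF2 lost its call without MEL replicate 1 (adjusted p = 0.0634), and SCAP without untreated replicate 1 or 3 (up to 0.074).

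Of 14 fatty acid synthesis and desaturation genes 10 were lower and none higher, with a median of −0.37. SCD, the desaturase that makes oleate, had signals of 11.12, 11.16 and 11.04 untreated and of 10.18, 10.00 and 9.91 with MEL. Its groups were apart by far more than their spread. SCD fell by 1.08 (standard error 0.10, adjusted p = 4.2e-06) and was called lower by all 4 of its probe sets. The elongase ELOVL6 fell by 1.14, the fatty acid carrier FABP5 by 0.90, ATP citrate lyase ACLY by 0.72 and malic enzyme ME1 by 0.32, which lost its call without any 1 of 4 arrays (adjusted p up to 0.134). With arrays normalized by cyclic loess, which removes the trend with level, the medians were −0.48 for the early sterol enzymes, −0.50 for the late ones and −0.33 for fatty acid synthesis. With the GAPDH difference as a covariate, STARD4 was at −1.44, INSIG1 at −1.47, CPT1A at 1.78 and PLIN2 at 1.32.

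**Figure D2:**
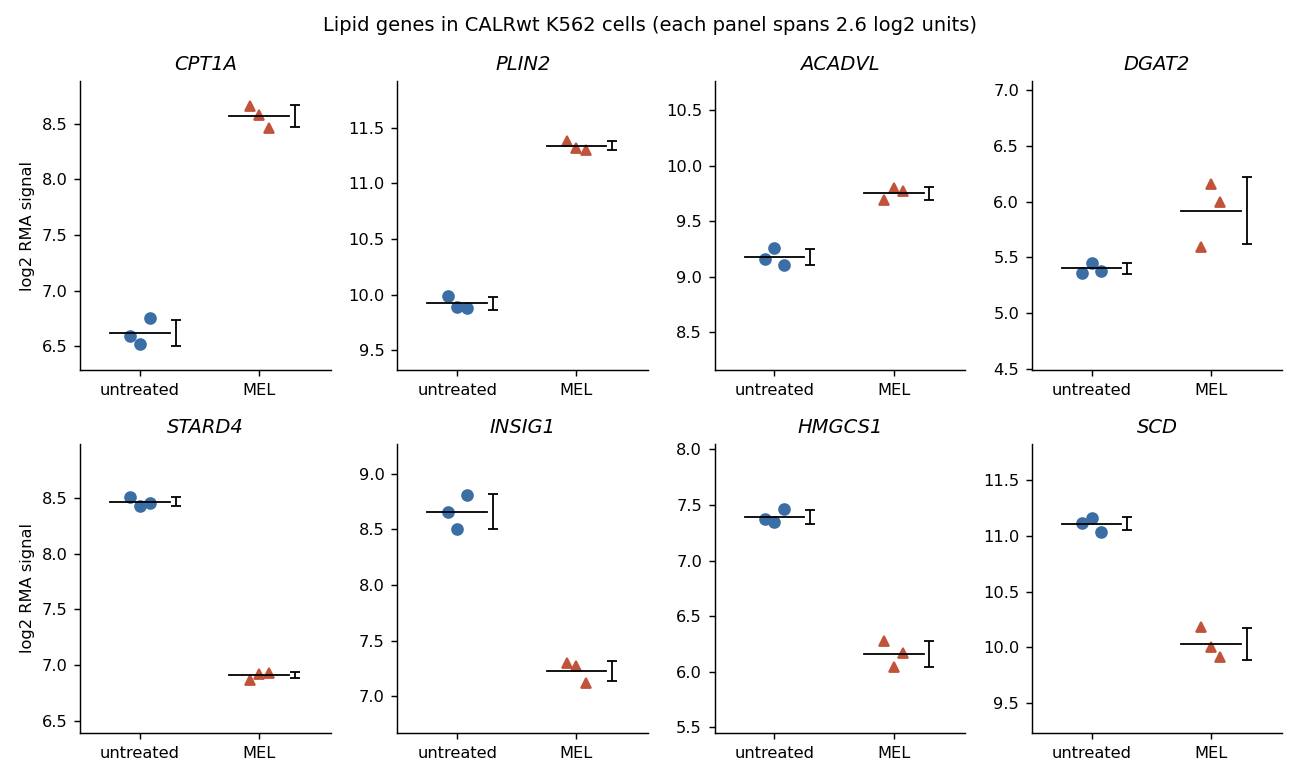
Log2 RMA signal (vertical axis, each panel spanning 2.6 units) of 8 lipid genes in untreated (blue circles) and MEL-treated (red triangles) CALRwt K562 cells, with 1 symbol per array, lines at the means and bars of 1 SD. CPT1A, PLIN2, ACADVL and DGAT2 are higher with MEL and STARD4, INSIG1, HMGCS1 and SCD are lower, without overlap of the 3 arrays of each group.

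Promoter sequence was read for these lists because sterol genes are known for SREBP sites beside a CCAAT box, the site of NF-Y. The 250 bases before each RefSeq start (GRCh38.p14) were searched on both strands. The SRE core TCACNCCAC was in none of the 23 lower genes of sterol and fatty acid synthesis or SREBP control with a window, and in 0.883% of all 35116 windows. CCAAT was in 18 of these 23 genes (78.3%), in 12 of 19 members that were not lower (63.2%) and in 39.7% of the 15384 measured genes with a window. One box each from the early steps, SREBP control and the late steps is shown, in a member with one of the largest changes of its list, with CCAAT or its reverse complement in capitals. They lie at chr5:43313498-43313522 on the minus strand, chr7:155297698-155297722 on the plus strand and chr4:165327625-165327649 on the plus strand.
HMGCS1: accggccgcgATTGGctgtgggagc
INSIG1: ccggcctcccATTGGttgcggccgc
MSMO1: ctctcgcaggCCAATaacgacagga
These matches describe letters only.

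Genes of ER protein folding and of the ATF4 pathway were higher in part, while the best known stress factor of this group was not. STC2, a secreted glycoprotein known as an ATF4 target, had signals of 7.83, 7.72 and 7.63 untreated and of 9.15, 8.90 and 8.92 with MEL. The groups did not overlap, and STC2 rose by 1.27 (standard error 0.11, adjusted p = 1.4e-06), with both of its probe sets called. CHAC1, which degrades glutathione, had signals of 8.36, 8.20 and 8.12 untreated and of 8.79, 8.83 and 8.72 with MEL, and rose by 0.56 (adjusted p = 1.6e-04). DDIT3, the gene of CHOP, had signals of 9.44, 9.39 and 9.28 untreated and of 9.27, 9.34 and 9.27 with MEL. Its groups overlapped, with a difference of −0.07 (adjusted p = 0.597). ATF4 itself, which is mainly controlled in translation, was at 0.12 (adjusted p = 0.319). In all 7 of 21 ATF4 and CHOP genes were higher and none lower, with a median of 0.15. They included the stress protein NUPR1 (0.68), the phosphatase subunit PPP1R15A that restores translation (0.52), ATF3 (0.48) and the ER oxidase ERO1A (0.36). ERO1A was at −0.09 when all its probe sets were averaged. For ATF3 1 probe set was called higher and 2 pointed lower without being called.

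Some genes that supply amino acids rose as well. Of 13 amino acid transporters 5 were higher and none lower, with a median of 0.21, among them the neutral amino acid carrier SLC1A4 (0.59), the arginine carrier SLC7A1 (0.49) and SLC3A2, the shared heavy chain of several carriers (0.42). Of 14 genes of serine, one-carbon and asparagine synthesis 3 were higher. PHGDH, the first enzyme of serine synthesis, had signals of 9.92, 10.09 and 9.78 untreated and of 10.53, 10.62 and 10.59 with MEL. The treated arrays were all above the untreated ones, and PHGDH rose by 0.65 (standard error 0.09, adjusted p = 1.2e-04). The cytosolic tRNA synthetases were split, with 3 of 17 higher and 2 lower.

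Of 19 ER luminal chaperones 6 were higher and none lower, although the median was 0.04. MANF, a small ER protein released under stress, had signals of 7.38, 7.54 and 7.60 untreated and of 8.53, 8.63 and 8.49 with MEL. The gap between groups was wider than the spread within either, and MANF rose by 1.04 (standard error 0.10, adjusted p = 5.2e-06). SDF2L1, which works with the chaperone BiP, rose by 0.53, the co-chaperone DNAJB9 by 0.48, HYOU1 by 0.41 and HSPA5, the gene of BiP, by 0.30 (adjusted p = 0.0328). The call of HSPA5 was lost without any 1 of 5 of the 6 arrays, with an adjusted p of up to 0.114. DNAJB9 was called by 1 of its 3 probe sets. HSPA5 is the only one of 16 higher ER genes with a window whose promoter held the ER stress element (CCAAT, 9 bases, CCACG), which 5 of the 34 ER genes that were not higher and 0.074% of all windows hold. It is shown with the element and its spacer in capitals, at chr9:125241386-125241414 on the minus strand.
HSPA5: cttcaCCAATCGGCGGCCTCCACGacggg
Among higher ATF4 and amino acid genes, 2 of 14 held the C/EBP-ATF element TGATGNAA (14.3%), against 5 of 26 of those not higher (19.2%) and 3.14% of all windows. The 2 sites lie at chr1:212565206-212565233 and chr15:40953252-40953279, both on the plus strand, with the element or its reverse complement in capitals.
ATF3: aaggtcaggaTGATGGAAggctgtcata
CHAC1: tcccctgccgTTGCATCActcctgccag

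Other parts of the ER moved in both directions. Of 17 disulfide isomerases and oxidases 5 were higher, among them TXNDC11 (0.63), PDIA4 (0.46) and P4HB (0.44), and 2 were lower, TMX1 (−0.60) and ERO1B (−0.46). Of 22 genes of ER-associated degradation 6 were higher and 1 lower, with NPLOC4 at 0.53, the mannose lectin ERLEC1 at 0.50 and EDEM1 at 0.44 against the channel protein DERL1 at −0.40. SEC61A1, the channel through which proteins enter the ER, had signals of 8.69, 8.70 and 8.56 untreated and of 9.29, 9.24 and 9.21 with MEL, and rose by 0.60 (adjusted p = 1.1e-04). It was 1 of 5 higher and 2 lower genes among 31 of translocation and glycosylation, a count that became 12 higher and 1 lower after cyclic loess. In the calreticulin and calnexin cycle, in which calreticulin holds glycoproteins until they fold, 2 of 13 were higher (15.4%) and none lower. They were the glucosidase subunit PRKCSH (0.36) and CALR, whose call rested on 1 of 3 probe sets and was lost without any 1 of 4 arrays. Centring the arrays left 0 called in this cycle and cyclic loess left 5. Of 14 UPR sensors and eIF2alpha kinases and their partners, 3 were higher, CREB3L2 (0.72), the IRE1 gene ERN1 (0.38) and ATF6 (0.35), and 3 were lower, EIF2AK4 (−0.57), EIF2S1 (−0.37) and EIF2B1 (−0.25). XBP1 was at 0.09 (adjusted p = 0.577) and EIF2AK3, the gene of PERK, at 0.30 (adjusted p = 0.052). By probe set, P4HB and ERN1 each had 1 higher and 2 lower and SEC61A1 1 of each, with only the higher ones called. Calls were lost for ERN1 without any 1 of 3 arrays (adjusted p up to 0.135), EIF2B1 without any 1 of 4 (0.148), PRKCSH without any 1 of 5 (0.0848), EDEM1 without untreated replicate 2 or 3 (0.0553) and ERO1B without MEL replicate 3 (0.0508). Of 18 genes of calcium stores and entry 4 were higher, led by the ER calcium channel ITPR2 at 1.00, and 2 lower, with the mitochondrial calcium gate MICU2 at −0.51.

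**Figure D3:**
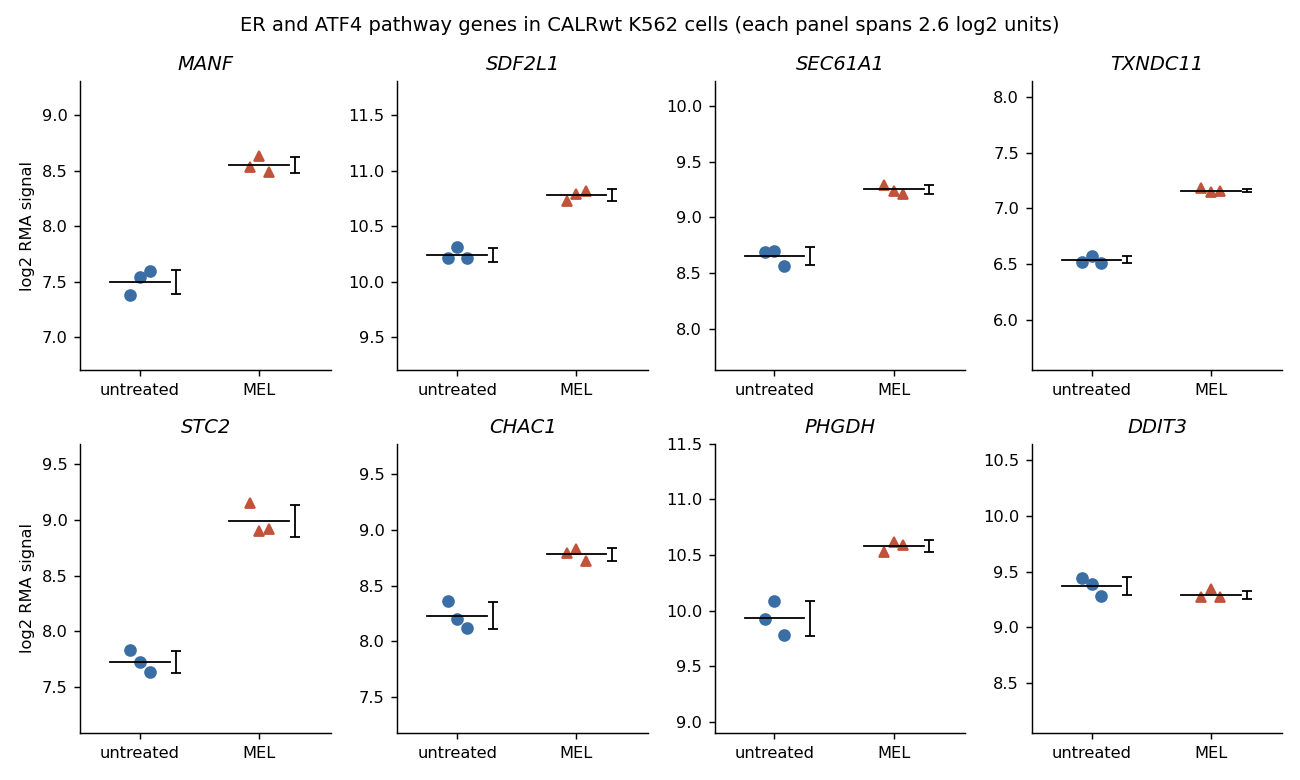
Log2 RMA signal (vertical axis, each panel spanning 2.6 units) of 8 ER and ATF4 pathway genes in untreated (blue circles) and MEL-treated (red triangles) CALRwt K562 cells, with 1 symbol per array, lines at the means and bars of 1 SD. The first 7 genes are higher with MEL in every array and DDIT3 overlaps between groups.

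Genes of mitochondria and of cytosolic protein quality control that passed the test were almost all lower. Of 48 mitochondrial ribosomal proteins 27 were lower and none higher, with a median of −0.28, and their mean level was 9.99 ± 0.02 in untreated (SD, n = 3) and 9.68 ± 0.05 in treated cells. MRPL19 fell by 0.85, MRPL39 by 0.82 and MRPS30 by 0.79. Of 51 subunits of the respiratory chain and ATP synthase 13 were lower and none higher, with a median of −0.16, led by NDUFA9 (−0.56) and UQCRC2 (−0.54). Of 16 citric acid cycle genes 8 were lower and none higher. PDHB, a subunit of pyruvate dehydrogenase, had signals of 10.05, 10.09 and 10.19 untreated and of 9.33, 9.16 and 9.23 with MEL. The groups lay apart, and PDHB fell by 0.87 (standard error 0.08, adjusted p = 4.7e-06). The isocitrate dehydrogenase subunits IDH3B and IDH3A fell by 0.60 and 0.59, IDH3A not passing without MEL replicate 3 (adjusted p = 0.0546).

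Outside mitochondria, 14 of 35 proteasome subunits were lower and none higher, with the ATPase PSMC6 at −0.89. Of 25 cytosolic heat shock and chaperonin genes 13 were lower and none higher, with a median of −0.28. CCT8, a chaperonin subunit, fell by 0.67, HSPA14 by 0.51 and HSPH1 by 0.48. HSPE1, which the list includes although its protein is mitochondrial, fell by 0.47. Cytosolic ribosomal proteins stayed closer to the whole, with 2 of 34 lower, none higher and a median of −0.05. Of 31 nucleolar genes 10 were lower and 1 higher. The lists of this paragraph and the one above had a high signal, and their counts moved with the scaling. After cyclic loess 19 mitochondrial ribosomal proteins were lower and 2 higher (median −0.18), 6 respiratory subunits were lower (median −0.06), and 10 proteasome subunits were lower and 1 higher (median −0.11). With the GAPDH difference as a covariate 16, 7 and 10 were lower.

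Of 23 enzymes that remove oxidants 2 were higher (8.7%) and 3 lower (13%), no more than the shares of all genes above the median level (9.41% and 16.1%), and single members lay on both sides. SOD1, the cytosolic superoxide dismutase, had signals of 12.58, 12.55 and 12.59 untreated and of 12.14, 12.04 and 12.04 with MEL. The groups did not overlap, and SOD1 fell by 0.50 (standard error 0.08, adjusted p = 5e-04). The mitochondrial SOD2 fell by 0.48 and OXR1, an oxidation resistance gene, by 0.51. OXR1 lost its call without any 1 of 4 arrays (adjusted p up to 0.105) and SOD2 without untreated replicate 3 (0.0768). Catalase CAT was at −0.11 (adjusted p = 0.407) and glutathione reductase GSR at −0.10 (adjusted p = 0.627). GPX8, an ER peroxidase, had signals of 6.0, 6.01 and 5.97 untreated and of 7.06, 6.97 and 6.84 with MEL, and rose by 0.96 (adjusted p = 1.7e-05) with both probe sets called.

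Of 29 genes of NRF2, KEAP1 and NRF2 targets 9 were higher and 2 lower, with a median of 0.08. The higher ones included the reductase AKR1C1 (0.62), the quinone reductase NQO1 (0.57), the KEAP1 binding protein SQSTM1 (0.56) and sulfiredoxin SRXN1 (0.55). Transketolase TKT was lower (−0.39). HMOX1, the heme oxygenase often used to read NRF2, had signals of 3.88, 4.26 and 3.92 untreated and of 3.90, 4.16 and 3.85 with MEL, near the dim end of the array and with overlapping groups (−0.05, adjusted p = 0.826). NRF2's own gene NFE2L2 was at −0.06. Of 10 metallothionein and zinc genes 3 were lower and none higher, with MT1X at −0.95. Among 29 glycolysis and HIF1 targets 4 were higher (13.8%) and 5 lower (17.2%), beside 9.41% and 16.1% of genes above the median level. The aldolase ALDOC was at −1.01 and the enolase ENO2 at 0.61. TKT lost its call without MEL replicate 3 or untreated replicate 1 (adjusted p up to 0.0735), and ENO2 without MEL replicate 1 or untreated replicate 3 (up to 0.0942).

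Among immediate early genes 5 of 26 were lower (19.2%) and 3 higher (11.5%), near the 16.1% and 9.41% of all genes above the median level, and the largest changes were decreases. EGR1, a factor induced within minutes of growth signals, had signals of 9.20, 8.84 and 8.76 untreated and of 7.31, 7.28 and 6.96 with MEL. The groups were far apart, and EGR1 fell by 1.75 (standard error 0.21, adjusted p = 3.5e-05), with all 3 probe sets called lower. FOS, its partner in the same response, had signals of 6.65, 6.29 and 6.92 untreated and of 5.40, 5.59 and 5.18 with MEL, and fell by 1.23 (adjusted p = 1.4e-04). FOSL1 (0.47) and KLF4 (0.45) were among the higher ones but lost their calls without any 1 of 5 and of 4 arrays (adjusted p up to 0.096 and 0.0706). CD69, an early activation antigen, fell by 1.47 and SPRED1, an inhibitor of the ERK pathway, by 1.10.

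JAK2-STAT5 signalling was included because mutated CALR is known to activate it. Of 16 genes 6 were lower and 1 higher, with a median of −0.16. ID1 fell by 0.79, STAT3 by 0.77, JAK2 by 0.48 (adjusted p = 0.041) and the feedback inhibitor SOCS2 by 0.45, while the kinase PIM2 rose by 0.27. The call of JAK2 was lost without any 1 of the 6 arrays, with an adjusted p of up to 0.128, and that of PIM2 without any 1 of 5, up to 0.0952. The cytokine receptor chain IL10RA had signals of 6.64, 6.75 and 6.49 untreated and of 4.82, 5.42 and 5.43 with MEL, and fell by 1.40. Interferon-stimulated genes counted 4 higher and 1 lower of 21, with OAS3 at 0.77 and IRF1 at 0.68. NF-kB targets counted 3 higher and 2 lower of 23.

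Genes of the erythroid identity of K562 were called in both directions. Of 17 erythroid and megakaryocyte factors 1 was higher (5.88%) and 3 lower (17.6%). Of all genes above the median level 9.41% were higher and 16.1% lower. The higher factor was the GATA1 cofactor ZFPM1 (0.75), and the lower ones included LMO2 at −0.51 and NFE2 at −0.44. GATA1 was at −0.16 (adjusted p = 0.23). LMO2 lost its call without MEL replicate 3 (adjusted p = 0.0639). Of 16 globin and red cell membrane genes 6 were higher (37.5%, against 9.41% of genes above the median level) and 2 lower, with the membrane proteins ANK1 at 0.42 and SLC4A1 at 0.38 and the embryonic globin HBZ at −0.46. ANK1 did not pass without untreated replicate 3 (adjusted p = 0.0683). Of 15 iron genes 3 were higher and 3 lower. The iron reductase CYBRD1 fell by 1.08. TFRC, the transferrin receptor, was at 0.43 by its brightest probe set, but 2 of its 5 probe sets were called higher and 2 lower. Heme synthesis genes counted 1 higher and 4 lower of 16, with a median of −0.03. The only higher one was ALAS2, the first enzyme of this pathway in red cells (0.48).

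In growth and survival genes, 11 of 41 DNA replication genes were lower (26.8%) and none higher, with the primase subunit PRIM1 at −0.64. Of 33 excision, mismatch and end-joining repair genes 10 were lower (30.3%) and 1 higher, with the uracil glycosylase UNG at −0.61. Of all genes above the median level 16.1% were lower, and of the fifth with the highest signal 23.4%. Cyclic loess moved the median of the replication genes from −0.16 to −0.05 and that of the repair genes from −0.10 to −0.02. Mitotic genes counted 4 higher and 4 lower of 43 (9.3% each), no more than 9.41% and 16.1% of genes above the median level. The kinase PLK1 rose by 0.73 and CDC20 by 0.57, while cyclin B1 (CCNB1) fell by 0.43. After cyclic loess 14 mitotic genes were higher and 1 lower. Of 21 p53 targets 1 was higher (4.76%), the cell cycle inhibitor CDKN1A (0.39), and 1 lower (4.76%), CCNG1 (−0.38). The BCL2 family counted 4 higher and 3 lower of 16, with a median of −0.08, so it did not move as a whole. The death-promoting BCL2L11 and BMF rose by 0.55 each and the survival gene BCL2 by 0.41, while BIK fell by 0.57. BCL2L11 was called by 1 of its 7 probe sets, and 3 of them pointed lower. BCL2 lost its call without any 1 of 5 arrays (adjusted p up to 0.133). BMF lost its call without any 1 of 3 arrays (adjusted p up to 0.0655) and BIK without any 1 of 4 (0.103). MCL1, a survival protein, was called lower by 4 of its 6 probe sets, with its brightest at −0.26. That probe set lost its call without any 1 of 5 arrays, with an adjusted p of up to 0.132.

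Membrane repair and turnover genes were also mixed. Of 9 annexins, which bind damaged membranes with calcium, 3 were higher, ANXA4 (0.69), ANXA3 (0.57) and ANXA2 (0.27), and 1 lower, ANXA7 (−0.36). ANXA2 did not pass without untreated replicate 3 (adjusted p = 0.0716). Of 17 genes of ESCRT-III and its partners, which cut and seal membranes, 3 were lower (17.6%) and 1 higher (5.88%). The lower ones were led by CHMP2B at −0.65. Of all genes above the median level 16.1% were lower and 9.41% higher, so this list stayed near the whole. Of 18 phospholipase A2 and eicosanoid genes 2 were higher (11.1%, near the 9.41%) and none lower. They were the lipoxygenases ALOX12 and ALOX5. ALOX12 had signals of 5.00, 4.59 and 4.44 untreated and of 5.98, 5.77 and 6.0 with MEL, and rose by 1.24 (adjusted p = 4.6e-05), and ALOX5 rose by 0.55, a call that was lost without any 1 of 5 arrays (adjusted p up to 0.109). Lysosomal genes counted 7 higher and 7 lower of 32 (21.9% each). Autophagy genes counted 4 higher (12.9%) and 9 lower (29.0%) of 31, with BECN1 at −0.51.

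Several of the genes with the largest changes belonged to none of these lists. Among those that rose were TESMIN (1.58), the collagens COL15A1 (1.50) and COL6A3 (1.19), LY96, a co-receptor of TLR4 (1.48), the adhesion receptor CD44 (1.38), the drug-metabolizing CYP3A5 (1.31), the kinase PRKCA (1.26), the phosphatase subunit PPP2R2D (1.25), the growth factor IGF1 (1.23), EGFR (1.19) and the vitamin B12 carrier TCN1 (1.19). Their probe sets did not all pass. CD44 was called by 4 of 13, PRKCA by 1 of 5 and EGFR by 2 of 9. TCN1 had a single probe set, with signals of 8.89, 8.63 and 8.74 untreated and of 10.02, 9.94 and 9.86 with MEL. Among those that fell were CFAP20DC (−1.52), OR51B5 (−1.51), the cilium genes BBS5 (−1.45), INTU (−1.44) and BBS12 (−1.26), IVNS1ABP (−1.29, called by all 4 probe sets), USP45 (−1.26), ALMS1-IT1 (−1.25) and the phospholipase C gene PLCD1 (−1.23).

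The response was compared with that of CALRdel52 and CALRins5 cells to ask what was particular to CALRwt cells. MEL changed 13.3% of genes in CALRdel52 and 11.6% in CALRins5 cells. Of the 1502 genes higher in CALRwt cells 560 (37.3%) were also called higher in CALRdel52 cells, where they made up 54.2% of the higher genes, and 599 (39.9%) in CALRins5 cells, where they made up 62.7%. Of the 2079 lower genes 1207 (58.1%) and 1057 (50.8%) were also called lower, which were 76.1% and 78.6% of those cells' lower genes. A further 690 higher and 576 lower genes passed only in CALRwt cells, which does not show that they differed. The sign was the same in all 3 vectors for 91.9% of the higher and 96.0% of the lower genes.

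The difference in response was tested itself and passed for 0 of 54675 probe sets (0.0%) for CALRdel52 minus CALRwt by limma, with 2926 at an unadjusted p under 0.05, and for 0 (0.0%) for CALRins5 minus CALRwt, with 2831. TCN1 had the smallest p in the first test. It rose by 1.19 in CALRwt and by 0.46 in CALRdel52 cells, a difference of −0.73 with a 95% interval of −0.97 to −0.49 and an adjusted p of 0.282. ATP11A, a lipid flippase, had the smallest p in the second (difference 0.97, adjusted p = 0.0887). Among the ER genes, the response of MANF differed by −0.36 in CALRdel52 cells (95% interval −0.65 to −0.06) and by −0.55 in CALRins5 cells (−0.85 to −0.26), and that of DNAJB9 by −0.56 (−0.81 to −0.30) and −0.39 (−0.64 to −0.14). Neither passed after adjustment, with adjusted p = 0.759 and 0.955 for DNAJB9. The metallothionein MT1X fell by 0.95 in CALRwt cells and was at −0.10 in CALRdel52 and −0.44 in CALRins5 cells, with adjusted p = 0.818 and 0.955 for the differences.

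A list of 21 measured genes was taken from the study's text, with STAT5A from the JAK2-STAT5 pathway of its discussion. Of these 8 were higher (38.1%) and 6 lower (28.6%) in CALRwt cells, beside 9.41% and 16.1% of genes above the median level. The study chose them, so this count is not independent evidence. The histone gene H2AX was higher (0.39), called by 1 of its 4 probe sets, and lost that call in 2 alternative runs. The study measured phosphorylation of the H2AX protein, which an mRNA level does not read. STAT5A was lower (−0.25), but its call was lost without any 1 of the 6 arrays (adjusted p up to 0.144). STAT5B was at 0.24 (adjusted p = 0.0743).

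**Figure D4:**
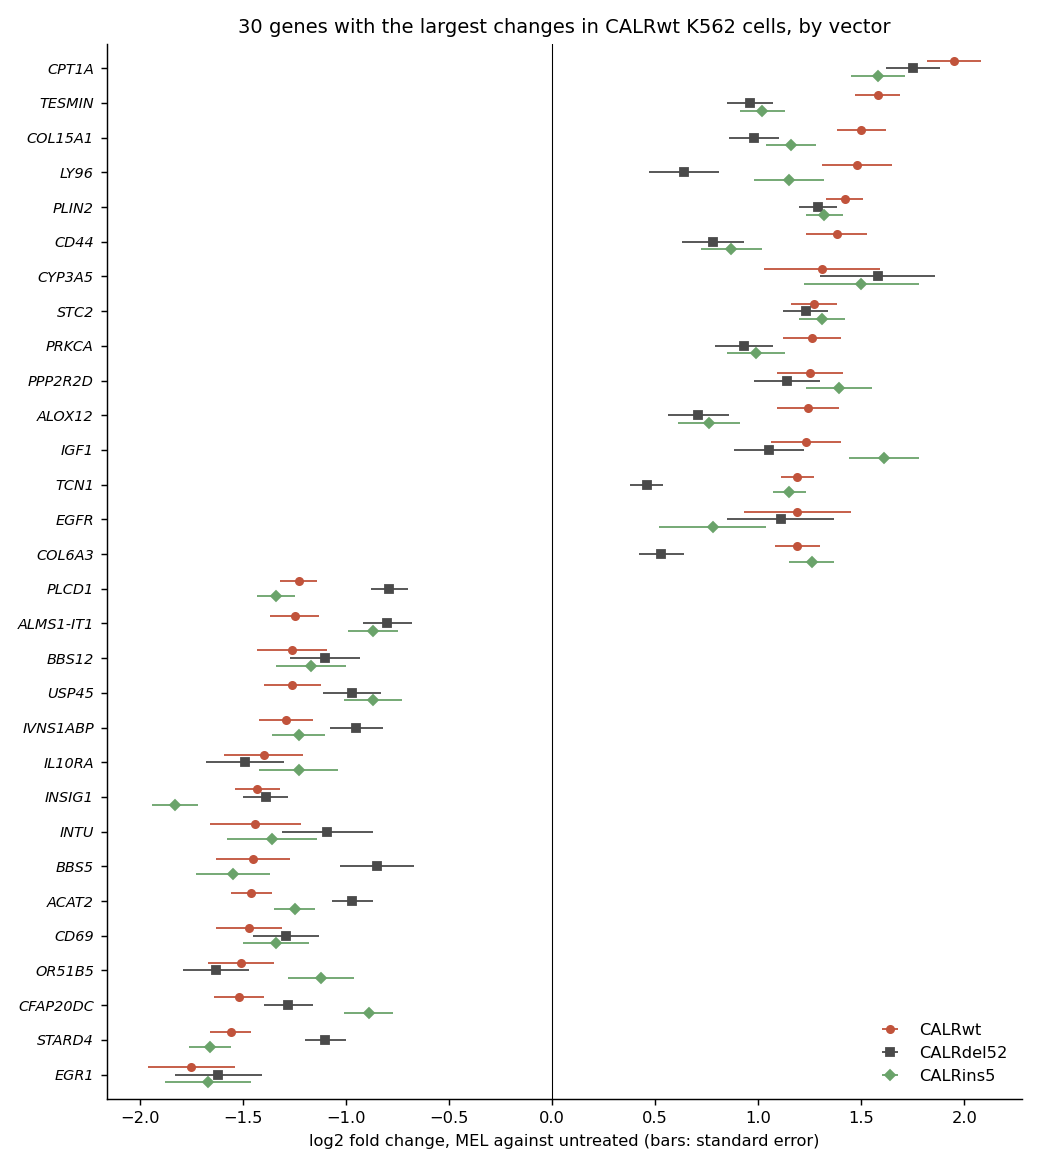
Log2 fold change with MEL (horizontal axis, bars of 1 standard error) of the 15 genes with the largest increases and the 15 with the largest decreases in CALRwt K562 cells, shown for the 3 vectors. The genes were chosen on the CALRwt values, which makes those values the extreme ones for many genes, and TCN1 lies at 1.19 in CALRwt and 0.46 in CALRdel52 cells.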

How the data were processed

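RNA of transduced K562 cells was hybridised to 18 HG-U133 Plus arrays. The deposited log2 values were made by the authors with RMA in Partek, which corrects background, equalises arrays and gives 1 value per probe set. The sources used here do not say which arrays were normalized together. No filter was applied, and groups came from the labels. Of 54675 probe sets, 41097 named 1 gene in the array's probe table, and the probe set with the highest mean over 18 arrays stood for a gene. limma 3.58.1 (lmFit, eBayes; R 4.3.3) was fitted to all 18 arrays in 6 groups, and p-values were adjusted by Benjamini-Hochberg over every probe set, with calls at 0.05. The number of arrays limits the precision.

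Named genes were the 15 highest and 15 lowest changes among called genes with non-overlapping groups and a group mean above the median. Also named were at most 4 called members per list and direction and members that define a list's steps. The rest were genes taken from the study's text and those with the smallest p for a difference in response. The members and the 56 gene lists were chosen with earlier results of these data known. Promoter windows came from RefSeq. Alternatives changed the arrays, scaling, probe sets, moderation, covariate and replicate block. Plots were made in Python 3.11.15 with matplotlib 3.10.9.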

Additional observations from a re-analysis of the deposited data

How the results depend on the processing

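In CALRwt cells the number of called probe sets was 4998 (2345 higher and 2653 lower) without the probe sets prone to cross-hybridisation, where fewer were tested, and 5264 (2083 higher and 3181 lower) with the GAPDH difference in the model. Centring the arrays gave 2332 higher. Leaving out 1 CALRwt array at a time gave 5068 to 7559 in all, 1917 to 3156 higher and 3040 to 4403 lower. The other alternatives stayed within 1.5 times the reported numbers. With the replicate number as a block 9125 were called (3946 higher and 5179 lower). The deviations of equally numbered CALRwt arrays had correlations of 0.158, 0.015 and −0.054. Over all vectors and treatments, 33 of 45 equally numbered pairs were above 0 (−0.218 to 0.234), and among untreated arrays all 9 were (0.041 to 0.226), against 3 of 18 unequally numbered untreated pairs. Since the CALRwt pairs were not all above 0.1 and no source ties the numbers to an experiment, they were not taken as pairs.

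For the difference in response, CALRdel52 minus CALRwt called 1 probe set with trend and robust moderation, 2 without moderation and 599 at an unadjusted p under 0.01. CALRins5 minus CALRwt called 7 with trend and robust moderation, 1 each among probe sets above the median level, with the GAPDH covariate and without both arrays that stood apart in other groups, and 552 at an unadjusted p under 0.01.

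Of 157 called named genes 112 kept direction and call under every alternative run, and 155 kept their direction. The exceptions were ERO1A (−0.093) and TFRC (−0.119) as means of all their probe sets. Signs also turned among genes that did not pass. DDIT3 was at 0.040 after repeated quantile normalization and 0.035 after cyclic loess, and NFE2L2 at 0.038 and 0.047, and at 0.011 as the mean of its probe sets. With 1 array left out HMOX1 ranged from −0.144 to 0.068, SREBF2 from −0.19 to 0.012 and NGFR from −0.006 to 0.34. GSR was at 0.009 after quantile normalization, 0.005 after cyclic loess and 0.084 with the GAPDH covariate, and STAT5B at −0.149 as the mean of its probe sets. The cause of these changes was not tested. Cyclic loess was chosen after the trend with signal had been seen.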
